A study of Mus musculus with 12 samples.

Results

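The genes described here are 36 members of the integrated stress response and of amino acid supply, chosen by gene symbol from a given list: transcription factors of the ATF4-CHOP branch, their effectors, enzymes of amino acid synthesis and mitochondrial one-carbon metabolism, amino acid transporters and cytosolic tRNA synthetases. All 36 were found among the 22298 genes of the count table, and 35 of them were among the 11904 genes that passed a low-count filter and were tested. Only Cbs, the first enzyme of transsulfuration, was not tested, at 0 to 0.307 CPM (counts per 1000000 counts of the library) in any library. The 4 cytosolic synthetases Aars, Gars, Nars and Sars were found under these symbols.

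RNA was sequenced from 4T1, a mouse mammary carcinoma line of BALB/c origin, carrying Cop1 sgRNA1, Cop1 sgRNA2 or, as control, a Rosa26 guide directed at a neutral locus. Cop1 encodes an E3 ubiquitin ligase that marks transcription factors for degradation. Cells of each population received either 20 ng/ml of interferon gamma (IFNγ) or vehicle over 24 hours, and each of the 6 groups held 2 libraries: Cop1 sgRNA1 with IFNγ, Cop1 sgRNA2 with IFNγ, Rosa26 with IFNγ, Cop1 sgRNA1 in vehicle, Cop1 sgRNA2 in vehicle and Rosa26 in vehicle. The comparisons ask how loss of Cop1 changes transcription at rest and under IFNγ. The labels name no other allele or agent. They do not say whether a population was a pool or a clone, where in Cop1 the guides cut, or whether the replicates were grown separately. The p-values therefore rest on the spread between these particular libraries, which may be technical. Gene totals ran from 19378070 to 32609717 counts per library. The summed level of 5 epithelial markers, all of them tested, was 2430 to 2480 CPM in Cop1-guide cells against 2070 to 2080 CPM in Rosa26 cells with IFNγ, and 2980 to 3030 against 2690 to 2750 CPM in vehicle, so that it moved with both factors, and its part in the results was not tested. Of the 5, Krt8, Krt18 and Epcam were called higher in Cop1-guide cells under both treatments and Krt14 was not called, whereas Cdh1, the E-cadherin gene, was called lower, at 367 to 411 CPM against 475 and 479 CPM in Rosa26 cells with IFNγ and 332 to 371 CPM against 484 and 498 CPM in vehicle. Of 5 leukocyte markers none was tested and 2 were at 0 in every library, and their sum was 0.0427 to 0.308 CPM. Of 6 fibroblast and endothelial markers 2 were tested, and their sum was 16.0 to 23.9 CPM, nearly all of it Pdgfra.

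The integrated stress response links a shortage of amino acids, misfolded protein, heme shortage or viral RNA to gene expression. Kinases that sense these states phosphorylate the alpha subunit of the initiation factor eIF2, which slows general translation while the mRNA of ATF4 is translated more. ATF4, with partners of the C/EBP family and its own targets such as CHOP, then raises the transcription of genes for amino acid synthesis, amino acid import and tRNA charging, and of the phosphatase subunit that closes the loop. Tumour cells in culture often draw on this program for serine, asparagine and cystine. The counts measure mRNA, and neither eIF2 phosphorylation nor ATF4 protein was measured.

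ATF4-C/EBP dimers are known to bind a composite element whose core is TGATGNAA, read on either strand (TGATGNAA, or TTNCATCA on the other). Promoter windows from 250 bases before to 50 after an annotated start were available from RefSeq for 29 of the 36 members (build GRCm38.p6). The core was present in 9 of these 29 members (31.0%), against 1219 of all 27025 genes with a window (4.51%). The stricter TGATGCAA (TTGCATCA), which is contained in the first motif, was present in 7 of 29 members (24.1%), against 1.03% of all genes. Holders were Chac1, Nupr1, Slc1a4, Pycr1, Vldlr, Asns, Aars, Gars and Got1. The stretches around the first match are shown for the 7 of them with the largest changes between Cop1-guide and Rosa26 cells described below, 5′ to 3′ in the direction of the gene, with the match in capitals.
Chac1 (chr2:119351018-119351087, plus strand, match 193 bases before the start): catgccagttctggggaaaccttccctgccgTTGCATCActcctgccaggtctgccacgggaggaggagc
Nupr1 (chr7:126625542-126625611, minus strand, match 110 bases before the start): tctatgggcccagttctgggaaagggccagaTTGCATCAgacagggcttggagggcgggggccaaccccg
Slc1a4 (chr11:20332684-20332748, minus strand, match 4 bases before the start): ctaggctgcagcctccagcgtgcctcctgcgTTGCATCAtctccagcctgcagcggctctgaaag
Pycr1 (chr11:120643813-120643882, minus strand, match 103 bases before the start): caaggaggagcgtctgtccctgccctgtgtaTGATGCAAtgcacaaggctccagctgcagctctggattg
Vldlr (chr19:27216789-27216858, plus strand, match 200 bases before the start): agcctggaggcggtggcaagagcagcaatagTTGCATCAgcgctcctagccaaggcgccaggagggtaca
Asns (chr6:7693194-7693263, minus strand, match 23 bases before the start): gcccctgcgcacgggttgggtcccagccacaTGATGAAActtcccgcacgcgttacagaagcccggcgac
Aars (chr8:111033699-111033768, plus strand, match 112 bases before the start): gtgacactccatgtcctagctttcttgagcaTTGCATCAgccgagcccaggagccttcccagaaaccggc
Each stretch except that of Asns, which reads TGATGAAA, holds the stricter form. Vldlr also had a window at an earlier start (chr19:27216234-27216533), which held no match. Atf4, Ddit3, Ppp1r15a, Gpt2, Slc3a2 and Mthfd2, whose values follow, had no match within their windows, which says only that these letters are not in them.

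Levels of different genes were set side by side per kilobase of annotated exon, joined over all transcripts of a gene. Transcripts not used in these cells can lengthen that divisor, so the order is rough. On this scale Rosa26 cells in vehicle stood highest for Phgdh (213 CPM per kb), Atf4 (106), Gars (103), Psat1 (89.8) and Shmt2 (88.5). Cbs (0.0262), Slc7a3 (0.0745), Aldh1l2 (0.352) and Vldlr (0.634) stood lowest on that scale. Phgdh is the first enzyme of serine synthesis and Gars charges glycine. Ddit3, which encodes CHOP, was at 10.4 CPM per kb.

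The targeted gene was read first, in CPM scaled to effective library size, as all levels below. Cop1 was at 60.7 and 60.2 CPM in Cop1 sgRNA1 cells, 32.3 and 33.6 CPM in Cop1 sgRNA2 cells and 80.4 and 83.3 CPM in Rosa26 cells with IFNγ. In vehicle it was at 59.1 and 63.1 CPM in Cop1 sgRNA1 cells, 34.5 and 34.7 CPM in Cop1 sgRNA2 cells and 89.7 and 98.2 CPM in Rosa26 cells. All Cop1-guide libraries lay below both Rosa26 libraries, those of sgRNA2 lowest. The mean of the guides differed from Rosa26 by -0.88 ± 0.05 on the log2 scale (SE; edgeR adjusted p = 2.34e-18) with IFNγ and -1.03 ± 0.05 on the log2 scale (SE; edgeR adjusted p = 6.01e-21) in vehicle. The test used throughout is the quasi-likelihood F test of edgeR, with p-values adjusted after Benjamini and Hochberg over all 11904 genes. Summing the libraries of each population, so that the spread came from the guides and the lone Rosa26 sample was assumed to vary like them, ended this call (adjusted p = 0.395 and 0.342 in the same edgeR test), as sgRNA2 was lower than sgRNA1 by -0.88 ± 0.06 and -0.82 ± 0.06. The summed fit had no term for the guide, so a steady difference between guides counted as spread in its tests of IFNγ too. A cut can also leave mRNA in place, so read counts check the labels only in part.

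Most of the genes were lower in Cop1-guide cells. With IFNγ 29 of the 35 tested members fell and 2 rose, where 20.7% of all tested genes fell and 19.8% rose. In vehicle 30 of 35 fell and 2 rose, against 19.2% and 16.6% of all genes. The median log2 change of the members was -0.38 with IFNγ and -0.36 in vehicle, and that of all tested genes 0.00 and -0.01. In 28 members with IFNγ (24.7% of all genes) and 29 in vehicle (24.5%), all 4 Cop1-guide libraries lay below both Rosa26 libraries. With the libraries summed as above, 18 members with IFNγ and 12 in vehicle were still called lower, against 6.25% and 4.51% of all genes, and none higher, against 5.49% and 2.76%. In bulk RNA, fewer cells with a transcript and less of it per cell cannot be told apart.

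**Figure D1:**
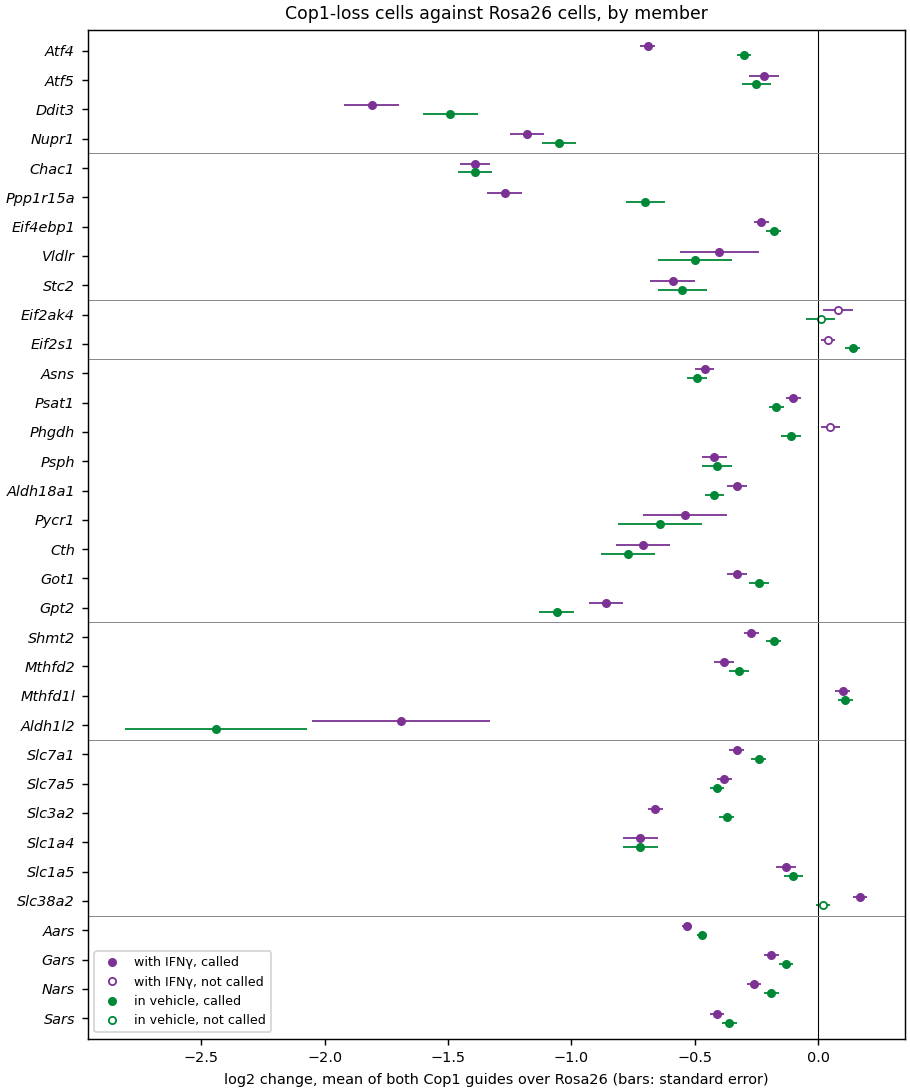
Log2 change of each member between Cop1-guide cells (mean of sgRNA1 and sgRNA2) and Rosa26 cells with IFNγ (purple) and in vehicle (green), with standard errors; filled points were called at an adjusted p under 0.05, open points were not, and grey lines separate the subgroups. Points lie left of 0 for most members, Aldh1l2 (-1.69 and -2.44), Ddit3 (-1.81 and -1.49) and Chac1 (-1.39 and -1.39) farthest. Cbs, not tested, and Slc7a3, near the detection limit, are not drawn.

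Of the 4 transcription factors of the branch, Ddit3, Nupr1 and Atf4 were called lower with each guide under both treatments, and Atf5 with sgRNA1. Ddit3 encodes CHOP, which ATF4 induces and which promotes cell death under lasting stress. It was at 7.19 and 6.79 CPM in Cop1 sgRNA1 cells, 7.37 and 7.72 CPM in Cop1 sgRNA2 cells and 25.2 and 25.8 CPM in Rosa26 cells with IFNγ. Vehicle levels were 5.64 and 7.80 CPM in Cop1 sgRNA1 cells, 6.92 and 5.47 CPM in Cop1 sgRNA2 cells and 17.6 and 18.2 CPM in Rosa26 cells. Every Cop1-guide library was below every Rosa26 library, whichever treatments are set side by side. The changes were -1.81 ± 0.11 on the log2 scale (SE; edgeR adjusted p = 6.50e-18) with IFNγ and -1.49 ± 0.11 on the log2 scale (SE; edgeR adjusted p = 2.29e-14) in vehicle, to 0.285 and 0.355 of the Rosa26 level. Other annotated genes, chiefly another entry named Ddit3 on the same strand, overlap up to 10.9% of the exon bases of Ddit3.

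Nupr1, a small chromatin protein induced by stress and by ATF4, was at 19.9 and 16.9 CPM in Cop1 sgRNA1 cells, 21.2 and 20.7 CPM in Cop1 sgRNA2 cells and 46.5 and 42.7 CPM in Rosa26 cells with IFNγ. Its vehicle values were 21.7 and 21.6 CPM in Cop1 sgRNA1 cells, 24.0 and 21.2 CPM in Cop1 sgRNA2 cells and 44.2 and 47.2 CPM in Rosa26 cells. The Rosa26 libraries stood at about the same height in both treatments, far above the Cop1-guide libraries. Nupr1 fell by 1.18 on the log2 scale with IFNγ (SE 0.07; edgeR adjusted p = 9.34e-18) and by 1.05 in vehicle (SE 0.07; edgeR adjusted p = 3.22e-16).

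Atf4 itself, the central activator, was at 229 and 232 CPM in Cop1 sgRNA1 cells, 260 and 255 CPM in Cop1 sgRNA2 cells and 387 and 397 CPM in Rosa26 cells with IFNγ. Without IFNγ it stood at 195 and 187 CPM in Cop1 sgRNA1 cells, 217 and 217 CPM in Cop1 sgRNA2 cells and 249 and 252 CPM in Rosa26 cells. The groups did not overlap under either treatment, and the gap was wider with IFNγ. Atf4 changed by -0.69 ± 0.03 on the log2 scale (SE; edgeR adjusted p = 1.61e-23) with IFNγ and by -0.30 ± 0.03 on the log2 scale (SE; edgeR adjusted p = 1.05e-11) in vehicle, and the vehicle call did not hold with the libraries summed (edgeR adjusted p = 0.0741).

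Atf5, a relative of ATF4 that acts in the mitochondrial stress response, split by guide. It was at 34.6 and 37.3 CPM in Cop1 sgRNA1 cells, 53.3 and 51.6 CPM in Cop1 sgRNA2 cells and 51.9 and 49.5 CPM in Rosa26 cells with IFNγ. Its vehicle libraries held 32.3 and 29.9 CPM in Cop1 sgRNA1 cells, 48.4 and 47.3 CPM in Cop1 sgRNA2 cells and 46.4 and 45.3 CPM in Rosa26 cells. Only the sgRNA1 libraries lay below Rosa26, and sgRNA2 libraries overlapped or exceeded it. The mean over guides was called lower (-0.22 ± 0.06 with IFNγ and -0.25 ± 0.06 in vehicle) but not with the libraries summed (edgeR adjusted p = 0.775 and 0.778). Exons of Nup62 on the opposite strand overlap 8.23% of the exon bases of Atf5, and the strand setting of the counting is not given in the sources used here.

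The 5 effectors were called lower under both treatments in the mean of the guides. Chac1 encodes a glutathione-degrading enzyme and is among the best known CHOP and ATF4 targets. It was at 24.4 and 25.1 CPM in Cop1 sgRNA1 cells, 29.7 and 32.8 CPM in Cop1 sgRNA2 cells and 70.6 and 75.0 CPM in Rosa26 cells with IFNγ. In vehicle the gene had 15.1 and 12 CPM in Cop1 sgRNA1 cells, 16.8 and 15.8 CPM in Cop1 sgRNA2 cells and 40.3 and 38.2 CPM in Rosa26 cells. Every Cop1-guide library was below every Rosa26 library, even with Cop1-guide libraries with IFNγ set against Rosa26 in vehicle. The change was -1.39 ± 0.06 on the log2 scale (SE; edgeR adjusted p = 1.78e-21) with IFNγ and -1.39 ± 0.07 on the log2 scale (SE; edgeR adjusted p = 1.95e-19) in vehicle, 0.381 and 0.381 of the Rosa26 level.

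Ppp1r15a encodes GADD34, the subunit that directs a phosphatase to eIF2 alpha. Its levels were 19.3 and 16.3 CPM in Cop1 sgRNA1 cells, 19.8 and 18.5 CPM in Cop1 sgRNA2 cells and 44.8 and 44.5 CPM in Rosa26 cells with IFNγ. In vehicle they were 14.6 and 13.3 CPM in Cop1 sgRNA1 cells, 16.4 and 16.1 CPM in Cop1 sgRNA2 cells and 25.3 and 23.6 CPM in Rosa26 cells. The Rosa26 libraries were higher under both treatments and much higher with IFNγ. The gene changed by -1.27 ± 0.07 on the log2 scale (SE; edgeR adjusted p = 3.00e-18) with IFNγ and by -0.70 ± 0.08 on the log2 scale (SE; edgeR adjusted p = 2.20e-09) in vehicle.

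Stc2, a secreted glycoprotein induced by the response, was at 13.2 and 11.8 CPM in Cop1 sgRNA1 cells, 14.0 and 12.8 CPM in Cop1 sgRNA2 cells and 19.5 and 19.7 CPM in Rosa26 cells with IFNγ. Its vehicle values were 9.88 and 9.16 CPM in Cop1 sgRNA1 cells, 8.94 and 8.68 CPM in Cop1 sgRNA2 cells and 14.1 and 12.7 CPM in Rosa26 cells. Both Cop1-guide populations were below Rosa26 throughout, by -0.59 ± 0.09 on the log2 scale (SE; edgeR adjusted p = 2.06e-06) with IFNγ and -0.55 ± 0.10 on the log2 scale (SE; edgeR adjusted p = 3.75e-05) in vehicle. Vldlr, a lipoprotein receptor induced by ATF4, was a low gene at 5.02 and 5.0 CPM in Cop1 sgRNA1 cells, 4.07 and 4.67 CPM in Cop1 sgRNA2 cells and 6.40 and 5.89 CPM in Rosa26 cells with IFNγ. In vehicle Vldlr was at 4.85 and 3.99 CPM in Cop1 sgRNA1 cells, 4.61 and 4.51 CPM in Cop1 sgRNA2 cells and 6.49 and 6.27 CPM in Rosa26 cells. It changed by -0.40 ± 0.16 on the log2 scale (SE; edgeR adjusted p = 0.0383) with IFNγ and -0.50 ± 0.15 on the log2 scale (SE; edgeR adjusted p = 0.00899) in vehicle. The IFNγ call was lost on leaving out 1 library in 5 cases (edgeR adjusted p up to 0.232, without Rosa26 IFNγ replicate 1), in DESeq2 (adjusted p = 0.102), without the low-count filter (0.0534) and with the libraries summed (0.166). The vehicle call was lost without Rosa26 vehicle replicate 1 (edgeR adjusted p = 0.0819) and with the libraries summed (0.110). Eif4ebp1, which encodes the translation repressor 4E-BP1, was abundant and moved little, by -0.23 ± 0.03 with IFNγ and -0.18 ± 0.03 in vehicle. Its vehicle call was lost with the libraries summed (edgeR adjusted p = 0.114).

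The sensor and its substrate gave 1 call for Cop1 loss. Eif2ak4, which encodes the amino acid sensor kinase GCN2, was not called, at 0.08 ± 0.06 with IFNγ and 0.01 ± 0.06 in vehicle. Its 12 libraries ran from 37.2 to 42.5 CPM. Eif2s1, the gene of eIF2 alpha itself, was called higher in vehicle (0.14 ± 0.03) and not called with IFNγ (0.04 ± 0.03). The difference between these changes was not called (-0.10 ± 0.04). With the libraries summed the vehicle call was lost (edgeR adjusted p = 0.178). In Rosa26 cells Eif2s1 was called higher with IFNγ than in vehicle (0.13 on the log2 scale). That call was also lost with the libraries summed (edgeR adjusted p = 0.278).

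**Figure D2:**
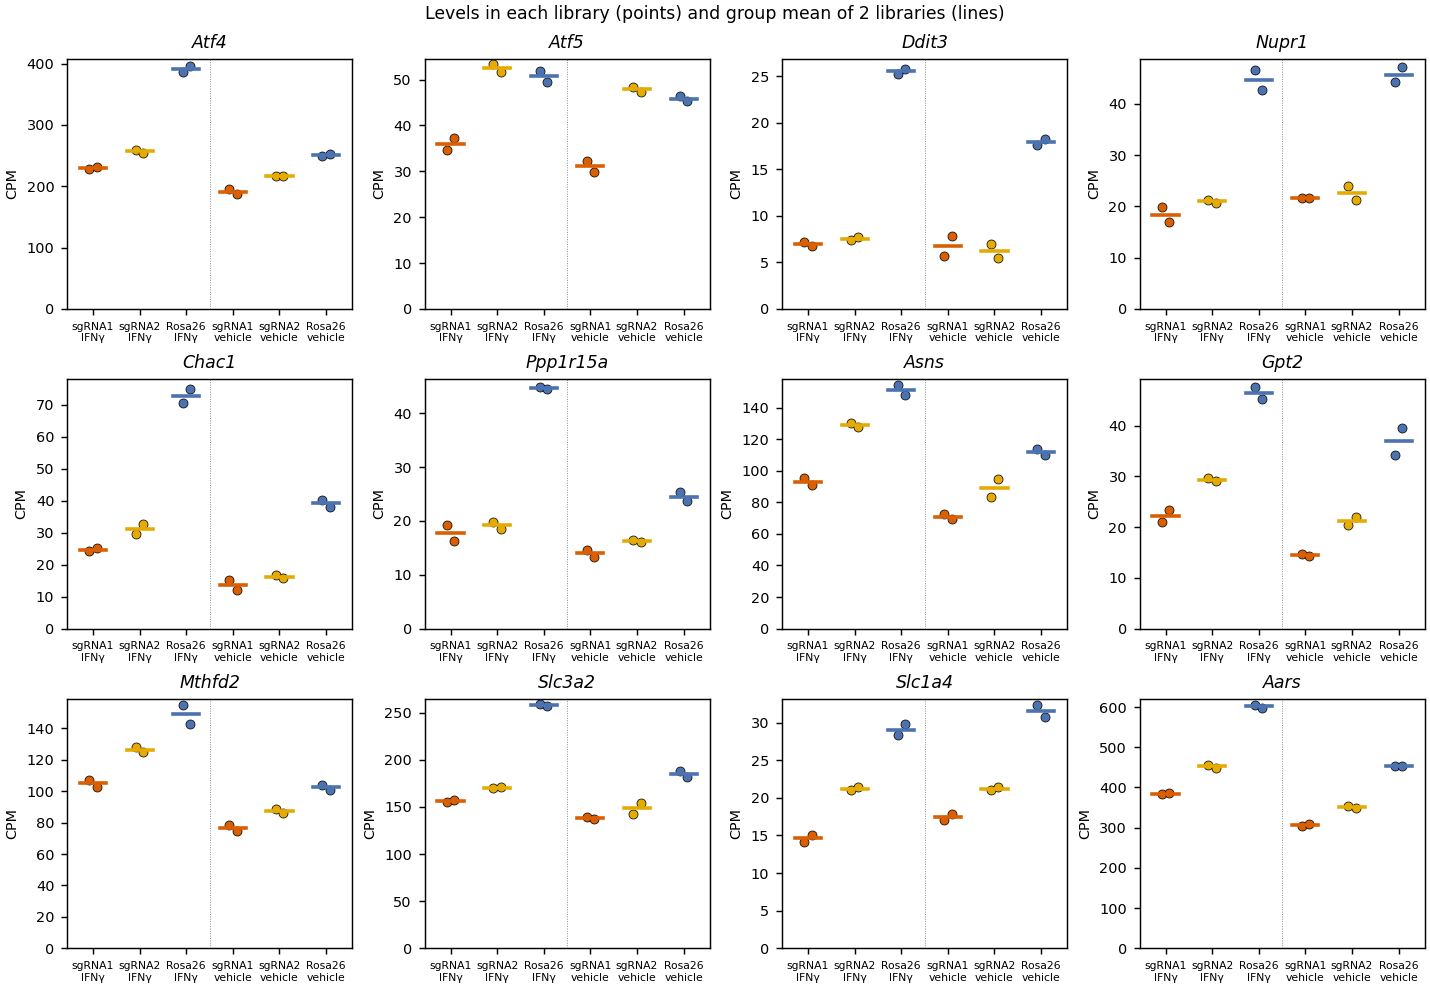
CPM of 12 members in every library, with IFNγ left and vehicle right of the dotted line; points are the 2 libraries of a group and lines their mean, orange for Cop1 sgRNA1, yellow for Cop1 sgRNA2 and blue for Rosa26. Ddit3, Nupr1, Chac1 and Ppp1r15a are low with both guides, whereas Atf5, Asns, Slc1a4 and Aars are lowest with sgRNA1, and Atf4 and Slc3a2 of Rosa26 cells stand highest with IFNγ.

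Among the 9 tested genes of amino acid synthesis, 8 fell with IFNγ and 9 in vehicle. Gpt2, the mitochondrial alanine transaminase that feeds glutamine carbon into the citric acid cycle, was at 21.1 and 23.3 CPM in Cop1 sgRNA1 cells, 29.7 and 29.1 CPM in Cop1 sgRNA2 cells and 47.6 and 45.2 CPM in Rosa26 cells with IFNγ. Its levels in vehicle were 14.8 and 14.4 CPM in Cop1 sgRNA1 cells, 20.5 and 22.1 CPM in Cop1 sgRNA2 cells and 34.2 and 39.6 CPM in Rosa26 cells. Both guides lay below Rosa26 and sgRNA1 lay below sgRNA2. Gpt2 changed by -0.86 ± 0.07 on the log2 scale (SE; edgeR adjusted p = 5.24e-14) with IFNγ and -1.06 ± 0.07 on the log2 scale (SE; edgeR adjusted p = 7.81e-16) in vehicle. Neither call held with the libraries summed (edgeR adjusted p = 0.109 and 0.0934).

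Cth encodes cystathionine gamma-lyase, which makes cysteine. Its levels were 8.69 and 7.61 CPM in Cop1 sgRNA1 cells, 8.64 and 7.93 CPM in Cop1 sgRNA2 cells and 14.0 and 12.9 CPM in Rosa26 cells with IFNγ. In vehicle they were 8.74 and 8.46 CPM in Cop1 sgRNA1 cells, 6.87 and 7.16 CPM in Cop1 sgRNA2 cells and 12.6 and 14.0 CPM in Rosa26 cells. The groups did not overlap, and Cth fell by 0.71 on the log2 scale with IFNγ (SE 0.11; edgeR adjusted p = 1.35e-06) and by 0.77 in vehicle (SE 0.11; edgeR adjusted p = 3.14e-07). Pycr1, the mitochondrial enzyme that completes proline synthesis, was at 3.75 and 2.78 CPM in Cop1 sgRNA1 cells, 3.71 and 5.04 CPM in Cop1 sgRNA2 cells and 5.76 and 5.23 CPM in Rosa26 cells with IFNγ. In vehicle Pycr1 was at 3.5 and 3.52 CPM in Cop1 sgRNA1 cells, 4.37 and 4.12 CPM in Cop1 sgRNA2 cells and 6.07 and 5.96 CPM in Rosa26 cells. It was lower in every Cop1-guide library, by -0.54 ± 0.17 on the log2 scale (SE; edgeR adjusted p = 0.0106) with IFNγ and -0.64 ± 0.17 on the log2 scale (SE; edgeR adjusted p = 0.00235) in vehicle, but leaving out Rosa26 IFNγ replicate 1, sgRNA1 IFNγ replicate 2 or sgRNA2 IFNγ replicate 1 ended the IFNγ call (edgeR adjusted p = 0.118, 0.0564 and 0.0624), and summing the libraries ended both (0.138 and 0.101).

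Asns, asparagine synthetase, was at 95.1 and 91.0 CPM in Cop1 sgRNA1 cells, 130 and 128 CPM in Cop1 sgRNA2 cells and 154 and 148 CPM in Rosa26 cells with IFNγ. In vehicle it was at 72.7 and 69.3 CPM in Cop1 sgRNA1 cells, 83.5 and 95 CPM in Cop1 sgRNA2 cells and 114 and 110 CPM in Rosa26 cells. It was lowest with sgRNA1 and between the other populations with sgRNA2, and the mean of the guides changed by -0.46 ± 0.04 on the log2 scale (SE; edgeR adjusted p = 1.46e-12) with IFNγ and -0.49 ± 0.04 on the log2 scale (SE; edgeR adjusted p = 1.73e-12) in vehicle. With the libraries summed the edgeR adjusted p was 0.311 and 0.317. Aldh18a1, the first enzyme of proline synthesis, fell by 0.33 with IFNγ and 0.42 in vehicle on the log2 scale, and these calls held with the libraries summed.

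Phgdh, the entry enzyme of serine synthesis, was not called with IFNγ (0.05 ± 0.04) and was slightly lower in vehicle (-0.11 ± 0.04), a call that leaving out either Rosa26 vehicle library ended (edgeR adjusted p = 0.114 and 0.162, and 0.0575 without sgRNA1 vehicle replicate 2). Psat1, the transaminase of the next step, changed by -0.10 ± 0.03 with IFNγ and -0.17 ± 0.03 in vehicle. Psph, the phosphatase that releases serine, changed by -0.42 ± 0.05 and -0.41 ± 0.06. Exons of Cct6a on the opposite strand overlap 10.4% of those of Psph. Got1, the cytosolic aspartate transaminase, changed by -0.33 ± 0.04 with IFNγ and -0.24 ± 0.04 in vehicle. Summing the libraries ended the calls of Psat1 (edgeR adjusted p = 0.401 with IFNγ and 0.172 in vehicle), and the vehicle calls of Phgdh (0.289) and Got1 (0.0900).

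Of the 4 mitochondrial one-carbon enzymes 3 fell and 1 rose under each treatment. Aldh1l2, which returns formyl-tetrahydrofolate to tetrahydrofolate with production of NADPH, had the lowest counts of the 3. It was at 0.909 and 0.174 CPM in Cop1 sgRNA1 cells, 0.678 and 1.05 CPM in Cop1 sgRNA2 cells and 2.26 and 2.20 CPM in Rosa26 cells with IFNγ. Vehicle levels were 0.644 and 0.376 CPM in Cop1 sgRNA1 cells, 0.433 and 0.434 CPM in Cop1 sgRNA2 cells and 2.20 and 3.07 CPM in Rosa26 cells. The Cop1-guide libraries held 4 to 23 counts and the Rosa26 libraries 50 to 69 counts, without overlap. The fitted changes of -1.69 ± 0.36 on the log2 scale (SE; edgeR adjusted p = 0.000196) with IFNγ and -2.44 ± 0.37 on the log2 scale (SE; edgeR adjusted p = 7.62e-07) in vehicle carry wide errors, and 14.1% of its exon bases overlap D10Wsu102e on the opposite strand.

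Mthfd2, the dehydrogenase and cyclohydrolase of mitochondrial folate, was at 107 and 103 CPM in Cop1 sgRNA1 cells, 128 and 125 CPM in Cop1 sgRNA2 cells and 155 and 143 CPM in Rosa26 cells with IFNγ. Without IFNγ it stood at 78.8 and 74.9 CPM in Cop1 sgRNA1 cells, 88.9 and 85.9 CPM in Cop1 sgRNA2 cells and 104 and 101 CPM in Rosa26 cells. It was below Rosa26 with both guides and lower with sgRNA1, with changes of -0.38 ± 0.04 on the log2 scale (SE; edgeR adjusted p = 7.82e-11) and -0.32 ± 0.04 on the log2 scale (SE; edgeR adjusted p = 2.01e-08). With the libraries summed the edgeR adjusted p was 0.069 and 0.134. Shmt2, which makes the one-carbon unit from serine, changed by -0.27 ± 0.03 with IFNγ and -0.18 ± 0.03 in vehicle. Mthfd1l, the formate-releasing synthetase, was the exception, higher by 0.10 ± 0.03 and 0.11 ± 0.03, and these small calls were lost when single libraries were left out (edgeR adjusted p up to 0.153 and 0.207, without Rosa26 IFNγ replicate 1 and Rosa26 vehicle replicate 2; also without the second sgRNA2 library of the treatment, 0.0881 and 0.0726). With the libraries summed Shmt2 lost its vehicle call (edgeR adjusted p = 0.172) and Mthfd1l both (0.370 with IFNγ and 0.372 in vehicle).

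Of the 7 transporters 5 were lower under each treatment. Slc3a2 encodes CD98hc, the shared chain of several amino acid exchangers. It was at 155 and 157 CPM in Cop1 sgRNA1 cells, 170 and 171 CPM in Cop1 sgRNA2 cells and 259 and 257 CPM in Rosa26 cells with IFNγ. Its vehicle libraries held 139 and 137 CPM in Cop1 sgRNA1 cells, 143 and 154 CPM in Cop1 sgRNA2 cells and 188 and 182 CPM in Rosa26 cells. The Cop1-guide libraries were lower under both treatments and the Rosa26 libraries were highest with IFNγ. Slc3a2 changed by -0.66 ± 0.03 on the log2 scale (SE; edgeR adjusted p = 3.67e-21) with IFNγ and -0.37 ± 0.03 on the log2 scale (SE; edgeR adjusted p = 1.23e-12) in vehicle. Its partner Slc7a5, the LAT1 exchanger of leucine and other large amino acids, changed by -0.38 ± 0.03 and -0.41 ± 0.03, and both partners kept their calls with the libraries summed.

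Slc1a4, a carrier of alanine, serine and cysteine, was at 14.2 and 15.1 CPM in Cop1 sgRNA1 cells, 21 and 21.4 CPM in Cop1 sgRNA2 cells and 28.3 and 29.8 CPM in Rosa26 cells with IFNγ. In vehicle the gene had 17.1 and 17.8 CPM in Cop1 sgRNA1 cells, 21 and 21.4 CPM in Cop1 sgRNA2 cells and 32.3 and 30.7 CPM in Rosa26 cells. Both guides lay below Rosa26 and sgRNA1 lay lowest. Slc1a4 changed by -0.72 ± 0.07 on the log2 scale (SE; edgeR adjusted p = 9.04e-11) with IFNγ and -0.72 ± 0.07 on the log2 scale (SE; edgeR adjusted p = 6.94e-11) in vehicle, and with the libraries summed the edgeR adjusted p was 0.0924 and 0.106. Slc7a1, the cationic amino acid carrier, changed by -0.33 ± 0.03 and -0.24 ± 0.03. Slc1a5, the glutamine carrier ASCT2, changed by -0.13 ± 0.04 and -0.10 ± 0.04, and DESeq2 did not call its vehicle change (adjusted p = 0.0869); nor did edgeR without either Rosa26 vehicle library (0.117 and 0.150), sgRNA1 vehicle replicate 2 (0.0966), sgRNA2 vehicle replicate 1 (0.0743) or sgRNA2 IFNγ replicate 2 (0.0533). Summing the libraries ended both calls of Slc1a5 (edgeR adjusted p = 0.217 with IFNγ and 0.402 in vehicle) and the vehicle call of Slc7a1 (0.0841).

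Slc38a2, the sodium-coupled carrier SNAT2 of small neutral amino acids, went the other way. It was at 299 and 305 CPM in Cop1 sgRNA1 cells, 329 and 332 CPM in Cop1 sgRNA2 cells and 278 and 284 CPM in Rosa26 cells with IFNγ. Its levels in vehicle were 310 and 317 CPM in Cop1 sgRNA1 cells, 331 and 330 CPM in Cop1 sgRNA2 cells and 313 and 321 CPM in Rosa26 cells. With IFNγ every Cop1-guide library was above both Rosa26 libraries, and in vehicle the groups overlapped. Slc38a2 rose by 0.17 ± 0.03 on the log2 scale (SE; edgeR adjusted p = 1.80e-06) with IFNγ and was not called in vehicle (0.02 ± 0.03), and the IFNγ call was lost with the libraries summed (edgeR adjusted p = 0.155). Slc7a3, a further cationic carrier, held 1 to 13 counts in a library and was not called in either comparison, although sgRNA2 alone was called higher than Rosa26 with IFNγ, at 13 and 6 counts against 1 and 3 counts.

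The 4 synthetases were called lower under both treatments. Aars, alanyl-tRNA synthetase, was at 384 and 386 CPM in Cop1 sgRNA1 cells, 457 and 449 CPM in Cop1 sgRNA2 cells and 606 and 597 CPM in Rosa26 cells with IFNγ. In vehicle it was at 303 and 310 CPM in Cop1 sgRNA1 cells, 354 and 348 CPM in Cop1 sgRNA2 cells and 453 and 453 CPM in Rosa26 cells. Both guides lay below Rosa26, sgRNA1 lowest, under each treatment. The changes were -0.53 ± 0.02 on the log2 scale (SE; edgeR adjusted p = 2.27e-21) with IFNγ and -0.47 ± 0.02 on the log2 scale (SE; edgeR adjusted p = 3.14e-19) in vehicle. Other genes, chiefly Exosc6 on the same strand, share 15.1% of the exon bases of Aars. Sars (serine) changed by -0.41 ± 0.03 and -0.36 ± 0.03, Nars (asparagine) by -0.26 ± 0.03 and -0.19 ± 0.03, and Gars (glycine) by -0.19 ± 0.03 and -0.13 ± 0.03, with IFNγ and in vehicle in that order. With the libraries summed Aars kept both calls and Sars that with IFNγ, while the vehicle call of Sars (edgeR adjusted p = 0.0528) and both calls of Nars (0.0931 and 0.236) and Gars (0.0767 and 0.244) were lost.

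**Figure D3:**
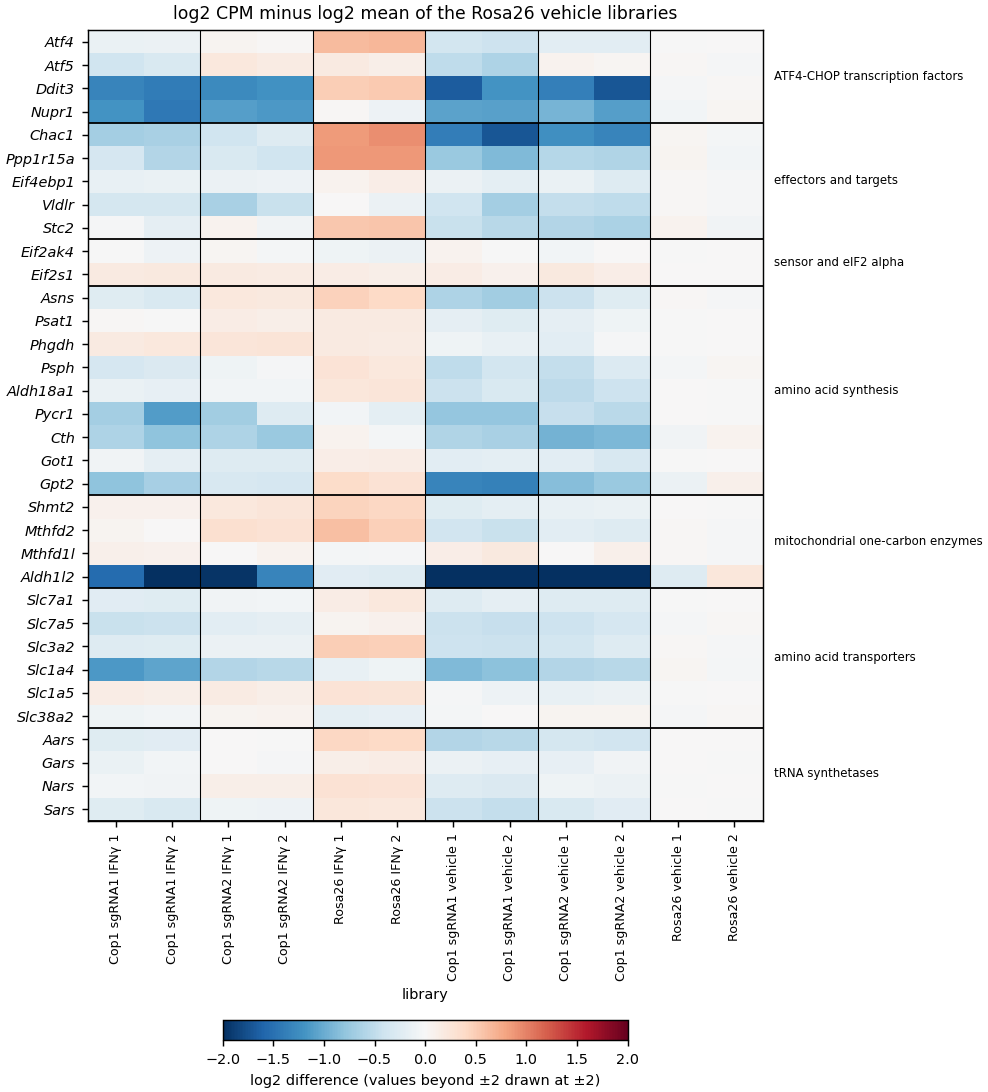
Log2 CPM of 34 members in each of the 12 libraries minus the log2 of the mean of the Rosa26 vehicle libraries; rows are members by subgroup, columns are libraries with IFNγ left and vehicle right, and values beyond 2 are drawn at 2. Cop1-guide columns are mostly blue (lower) in vehicle and the Rosa26 IFNγ columns are mostly red (higher). The Cop1-guide IFNγ columns lie between them in many rows. In the Ddit3 row they overlap the Cop1-guide vehicle columns, and in the Nupr1 row they lie below them.

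IFNγ raised many of these genes in Rosa26 cells. There 23 of the 35 tested members rose and 1 fell, where 16.6% of all tested genes rose and 16.2% fell, and the median change was 0.17 against -0.01 over all genes. The largest were Chac1 (0.89 ± 0.07 on the log2 scale (SE; edgeR adjusted p = 1.37e-13)), Ppp1r15a (0.87 ± 0.08 on the log2 scale (SE; edgeR adjusted p = 1.78e-11)) and Atf4 (0.64 ± 0.03 on the log2 scale (SE; edgeR adjusted p = 7.08e-21)). Further called changes of at least 0.5 on the log2 scale were those of Stc2 (0.54 ± 0.11), Mthfd2 (0.54 ± 0.05) and Ddit3 (0.51 ± 0.11). In each of these 6 genes both Rosa26 IFNγ libraries lay above both Rosa26 vehicle libraries, as the values above show (31.4% of all genes did so).

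All 4 synthetases rose with IFNγ in Rosa26 cells, with 0.14 ± 0.03 for Gars and 0.41 ± 0.03 for Aars as the extremes. Of the 9 synthesis enzymes 7 rose, Asns by 0.43 ± 0.05. Shmt2 (0.42 ± 0.03), Slc3a2 (0.48 ± 0.04), Slc1a5 (0.26 ± 0.04) and Slc7a1 (0.18 ± 0.03) rose too, and Slc38a2 fell (-0.18 ± 0.03). Nupr1 (-0.03 ± 0.08), Slc7a5 (0.07 ± 0.03), Cth (0.02 ± 0.12), Pycr1 (-0.13 ± 0.19), Slc1a4 (-0.12 ± 0.08) and Vldlr (-0.05 ± 0.17) were not called, although each was lower in Cop1-guide cells. The calls of Eif4ebp1 (0.10 ± 0.04) and Got1 (0.14 ± 0.05) were lost in DESeq2 (adjusted p = 0.122 and 0.0585). In edgeR that of Eif4ebp1 was also lost without Rosa26 vehicle replicate 2 or Rosa26 IFNγ replicate 2 (adjusted p = 0.267 and 0.332), that of Got1 without any 1 of the 4 Rosa26 libraries (0.0584 to 0.0962), and that of Gpt2 (0.33 ± 0.08) without Rosa26 vehicle replicate 1 (0.0633). Summing the libraries ended the calls of all 4 synthetases (edgeR adjusted p = 0.0951 to 0.306), of all 7 synthesis enzymes (0.119 to 0.590), of Slc1a5 (0.0634), Slc7a1 (0.264) and Slc38a2 (0.248), and of Eif4ebp1 (0.435).

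Cop1-guide cells also responded. With IFNγ 21 of the 35 members rose in them and 1 fell, against 18.1% and 16.1% of all genes, with a median of 0.19 for the members and -0.01 for all genes. Chac1 rose by 0.89 ± 0.06 on the log2 scale (SE; edgeR adjusted p = 1.55e-15), from a lower vehicle level than in Rosa26 cells. Gpt2 (0.53 ± 0.06), Stc2 (0.50 ± 0.09), Mthfd2 (0.49 ± 0.03), Asns (0.46 ± 0.04) and Aars (0.35 ± 0.02) rose as well. Ddit3 was not called (0.19 ± 0.11; edgeR adjusted p = 0.183) with all 12 libraries and was called without sgRNA1 vehicle replicate 2 (0.0391). Nupr1 was called lower (-0.17 ± 0.06), a call that 6 of the single-library omissions and DESeq2 (adjusted p = 0.0896) ended. The summed fit, without a term for the guide, counts a steady difference between guides as spread in this response too. When the libraries of each population were summed, 9 members in Cop1-guide cells and 8 in Rosa26 cells were called higher, against 7.22% and 5.99% of all genes, and none lower, against 4.23% and 3.27%. Among the calls lost then in Cop1-guide cells were those of Gpt2 (edgeR adjusted p = 0.251), Asns (0.265), Nupr1 (0.261), Atf4 (0.0507), Ppp1r15a (0.0814) and Slc3a2 (0.0921).

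The interaction test asks whether the IFNγ response itself differed between Cop1-guide and Rosa26 cells. It called 4 of 35 members, 3 with a smaller rise in Cop1-guide cells and 1 the other way, where 2.36% and 3.38% of all genes were called in these directions and 5.74% in either. Atf4 rose by 0.26 ± 0.02 in Cop1-guide cells and by 0.64 ± 0.03 in Rosa26 cells, a difference of -0.38 ± 0.04 on the log2 scale (SE; edgeR adjusted p = 2.40e-09). Ppp1r15a rose by 0.29 ± 0.07 in Cop1-guide cells and by 0.87 ± 0.08 in Rosa26 cells, and the difference was -0.58 ± 0.11 on the log2 scale (SE; edgeR adjusted p = 0.000405). For Slc3a2 the responses were 0.19 ± 0.03 and 0.48 ± 0.04, differing by -0.29 ± 0.04 on the log2 scale (SE; edgeR adjusted p = 1.47e-05). Slc38a2 did not change in Cop1-guide cells by the test (-0.03 ± 0.02) and fell in Rosa26 cells (-0.18 ± 0.03), a difference of 0.15 ± 0.04 on the log2 scale (SE; edgeR adjusted p = 0.0111).

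Other members gave no such call. The responses of Chac1 differed by 0.00 ± 0.09, those of Asns by 0.02 ± 0.06 and those of Ddit3 by -0.32 ± 0.16 (edgeR adjusted p = 0.269), with a wide error for Ddit3. The 4 synthetases gave differences of -0.07 to -0.05, none called. Phgdh differed by 0.16 ± 0.05 (edgeR adjusted p = 0.0851) and was called by DESeq2 (0.0489), without the low-count filter (0.000518), and without sgRNA2 vehicle replicate 1 (0.0331) or replicate 2 (2.01e-05). No interaction call held with the libraries summed (edgeR adjusted p = 0.687 to 0.998 for the 4 members), and that of Slc38a2 was also lost without Rosa26 vehicle replicate 2 (0.115), Rosa26 IFNγ replicate 1 (0.0974) or sgRNA2 IFNγ replicate 2 (0.0535).

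Many of the amino acid genes differed between the guides. With IFNγ 17 of the 35 members were higher with sgRNA2 than with sgRNA1, against 5.07% of all genes, and none was called lower, against 4.33%. In vehicle 9 were higher and none lower, against 2.58% and 3.41%. Omitting each library in turn left 12 to 17 members higher with IFNγ, fewest without sgRNA1 IFNγ replicate 1, and 7 to 9 in vehicle. At an unadjusted p under 0.05 in edgeR, 18 members were higher and 1 lower with IFNγ, and 16 higher and 2 lower in vehicle. DESeq2 called 0 and 0 lower. The shares of all genes under these alternative rules were not counted. sgRNA2 was the guide with less Cop1 mRNA. The largest called difference was that of Atf5, at 0.55 ± 0.07 on the log2 scale (SE; edgeR adjusted p = 1.03e-07) with IFNγ and 0.62 ± 0.07 on the log2 scale (SE; edgeR adjusted p = 1.01e-08) in vehicle. It was -0.50 ± 0.07 and -0.56 ± 0.07 relative to Rosa26 with sgRNA1, and 0.05 ± 0.06 and 0.06 ± 0.06, not called, with sgRNA2.

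Differences between guides of at least 0.4 on the log2 scale were also called for Slc1a4 (0.53 ± 0.09 with IFNγ), Asns (0.47 ± 0.05 with IFNγ) and Gpt2 (0.41 ± 0.09 with IFNγ and 0.54 ± 0.09 in vehicle). Those of the synthetases Aars (0.23 ± 0.03 and 0.20 ± 0.03), Sars (0.18 ± 0.03 and 0.19 ± 0.03) and Nars (0.17 ± 0.03 and 0.17 ± 0.03) were called under both treatments. Of the 4 transcription factors Atf4 was called as well as Atf5, at 0.16 ± 0.03 with IFNγ and 0.18 ± 0.03 in vehicle. Ddit3 differed between guides by 0.11 ± 0.15 with IFNγ and -0.09 ± 0.15 in vehicle, Nupr1 by 0.18 ± 0.09 and 0.06 ± 0.09, and Ppp1r15a by 0.10 ± 0.10 and 0.21 ± 0.10, none of them called, which does not show that the guides act alike. Chac1 was called with IFNγ (0.33 ± 0.08) and not in vehicle (0.25 ± 0.10). Its IFNγ call was lost without sgRNA1 IFNγ replicate 1 or sgRNA2 IFNγ replicate 2 (edgeR adjusted p = 0.0867 and 0.130), and that of Gpt2 without the same sgRNA1 library (0.0598). Slc3a2 lost its IFNγ call without any 1 of the 4 Cop1-guide IFNγ libraries (edgeR adjusted p = 0.0656 to 0.158), and Psat1, Psph and Slc38a2 without either of a pair of them (0.0576 to 0.105). In vehicle the call of Mthfd2 was lost without sgRNA1 vehicle replicate 2 or sgRNA2 vehicle replicate 1 (0.169 and 0.141), and that of Slc1a4 without any 1 of the 12 libraries (0.0522 to 0.301), in DESeq2 (0.144) and without the low-count filter (0.0631). Each guide has 2 libraries per treatment, and a guide cannot be told apart from the cell population that carries it.

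**Figure D4:**
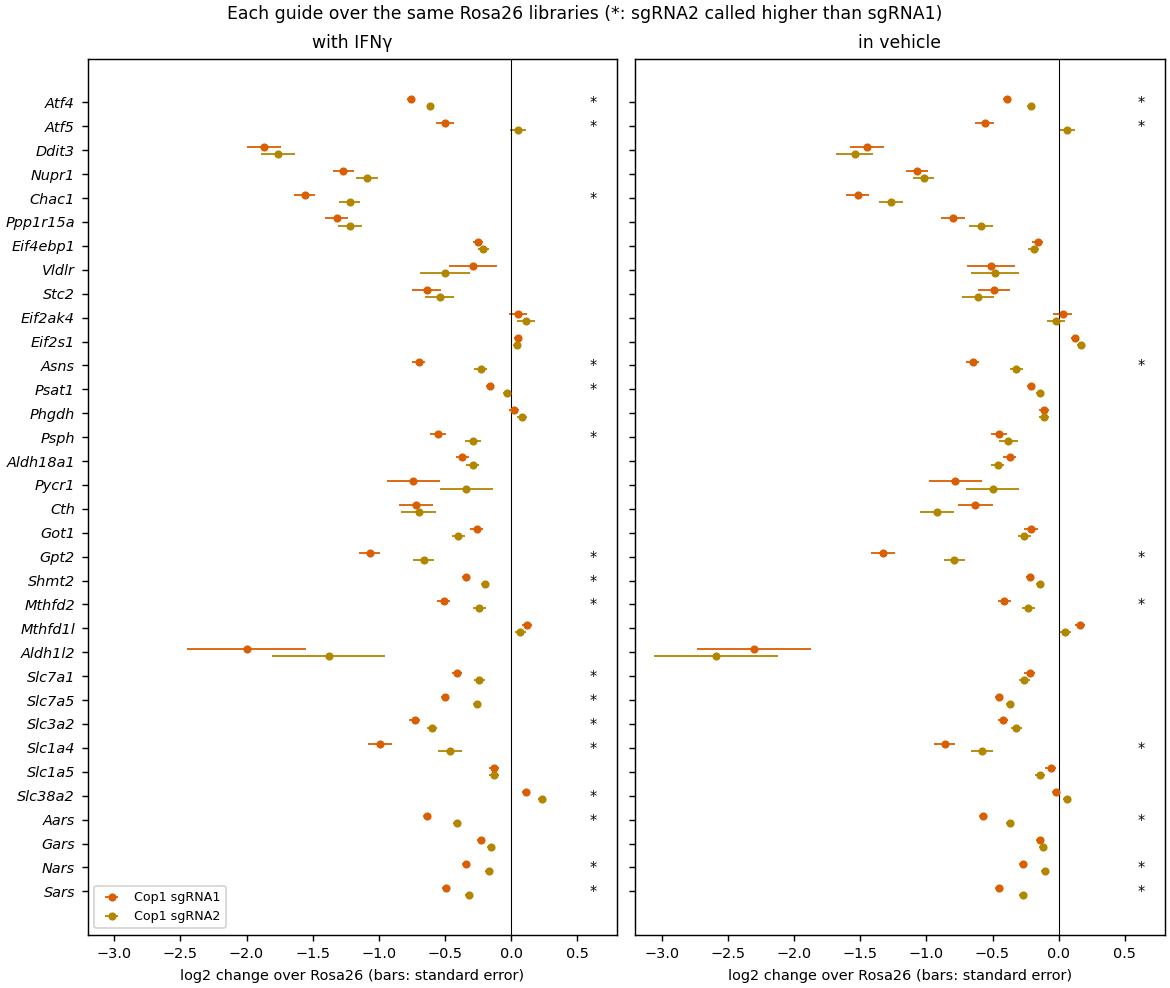
Log2 change over the same Rosa26 libraries for Cop1 sgRNA1 (orange) and Cop1 sgRNA2 (dark yellow), with standard errors, with IFNγ (left) and in vehicle (right); a star marks members called higher with sgRNA2 than with sgRNA1. Both guides are left of 0 for Ddit3, Nupr1 and Chac1, whereas for Atf5 only sgRNA1 is (-0.50 with IFNγ and -0.56 in vehicle). The guides share their Rosa26 libraries, and Cbs and Slc7a3 are not drawn.

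Genes of the pathway outside the 36 members were read from lists of their own. Of 17 further tested targets of ATF4 and CHOP, 15 fell in Cop1-guide cells under each treatment and none rose. Over all tested genes 20.7% fell and 19.8% rose with IFNγ, and 19.2% and 16.6% in vehicle. The medians of these targets were -0.66 with IFNγ and -0.39 in vehicle. With IFNγ in Rosa26 cells 13 of the 17 rose and 1 fell, against 16.6% and 16.2% of all genes. Atf3, a stress-induced repressor, changed by -1.71 ± 0.05 with IFNγ and -1.17 ± 0.07 in vehicle, and rose by 2.06 ± 0.06 in Rosa26 cells with IFNγ. Trib3, a pseudokinase that feeds back on ATF4, changed by -1.05 ± 0.06 and -1.26 ± 0.07 with Cop1 loss and by 0.73 ± 0.07 with IFNγ in Rosa26 cells. The cystine carrier gene Slc7a11 (-1.11 ± 0.09 and -1.07 ± 0.10), the glycine carrier gene Slc6a9 (-1.29 ± 0.15 and -1.63 ± 0.17) and the mTORC1 inhibitor gene Sesn2 (-0.93 ± 0.12 and -0.93 ± 0.13) were lower with IFNγ and in vehicle. Cebpb, whose protein pairs with ATF4, changed by -0.82 ± 0.05 and -0.63 ± 0.05, and Cebpg by -0.18 ± 0.05 and -0.18 ± 0.06.

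Of 13 tested genes of the other eIF2 kinases, eIF2, eIF2B and the phosphatase, 3 fell under each treatment in Cop1-guide cells, while 1 rose with IFNγ and 2 in vehicle. The share that fell was near that of all genes (20.7% with IFNγ and 19.2% in vehicle). The share that rose was below that of all genes with IFNγ (19.8%) and near it in vehicle (16.6%). Eif2ak3, the gene of the endoplasmic reticulum sensor PERK, was lower by -0.70 ± 0.08 with IFNγ and -0.51 ± 0.08 in vehicle. Eif2ak2, the gene of the interferon-induced kinase PKR, changed by -0.33 ± 0.04 and -0.24 ± 0.05 with Cop1 loss and rose by 1.18 ± 0.05 with IFNγ in Rosa26 cells. Chaperone genes of the endoplasmic reticulum were listed together with Xbp1 and Edem1, which are not chaperone genes. These 12 genes are driven mainly by the other branches of the unfolded protein response. In the mean of the guides 8 were called higher and 2 lower with IFNγ, against 19.8% and 20.7% of all genes. In vehicle 6 were called higher and none lower, against 16.6% and 19.2%, and the guides differed. With sgRNA1 10 were higher and 1 lower than in Rosa26 cells with IFNγ, and 8 and 0 in vehicle. With sgRNA2 4 were higher and 3 lower with IFNγ, and 3 and 3 in vehicle. The shares of all genes called with each guide alone were not counted. Tested against each other, sgRNA2 was called lower than sgRNA1 for 10 of the 12 with IFNγ and 5 in vehicle (4.33% and 3.41% of all genes). It was called higher for none (5.07% and 2.58% of all genes). Calr, the calreticulin gene, averaged 1120 CPM with sgRNA1, 861 CPM with sgRNA2 and 838 CPM in Rosa26 cells with IFNγ. Hspa5, the BiP chaperone gene, was not called in the mean of the guides (-0.01 ± 0.02 and 0.02 ± 0.02), but it was called higher than Rosa26 with sgRNA1 (0.09 ± 0.03 with IFNγ and 0.14 ± 0.03 in vehicle) and lower with sgRNA2 (-0.12 ± 0.03 and -0.10 ± 0.03).

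Not all synthetase or amino acid genes fell. Of 16 other cytosolic synthetases 8 were lower under each treatment, against 20.7% of all genes with IFNγ and 19.2% in vehicle. Higher were 4 with IFNγ and 2 in vehicle, near the shares over all genes (19.8% and 16.6%). Vars (valine) rose by 0.36 ± 0.02 and 0.26 ± 0.02, and Wars (tryptophan), a gene known to be induced by IFNγ, changed by -0.39 ± 0.03 and -0.18 ± 0.04 and rose by 0.67 ± 0.04 with IFNγ in Rosa26 cells. Of 17 mitochondrial synthetases 4 were lower under each treatment, near the shares over all genes. Higher were 2 with IFNγ and 1 in vehicle, fewer than those shares (19.8% and 16.6%). Among 12 other folate genes 5 fell with IFNγ and 3 in vehicle, and 1 and 2 rose, where 20.7% and 19.2% of all genes fell and 19.8% and 16.6% rose, so that the vehicle counts were near those shares. Among 18 other genes of amino acid metabolism 6 fell under each treatment, and 2 rose with IFNγ and 3 in vehicle, against the same shares of all genes. Ass1, the arginine-synthesis gene for argininosuccinate synthase, was at -0.93 ± 0.08 and -0.93 ± 0.08. Mat2a, which makes the methyl donor S-adenosylmethionine, rose by 0.50 ± 0.04 and 0.16 ± 0.04. Ido1, which degrades tryptophan, held 37 to 63 counts in Cop1-guide libraries against 114 and 119 counts in Rosa26 libraries with IFNγ (-1.10 ± 0.26), and at most 2 counts in any vehicle library.

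**Figure D5:**
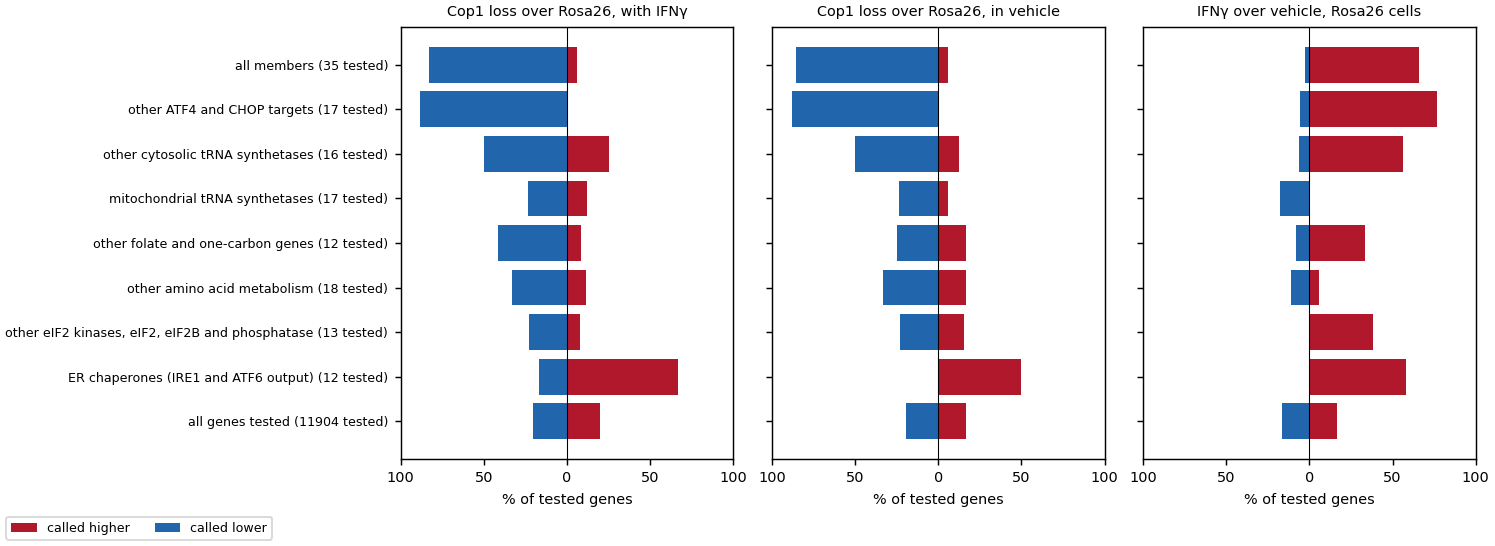
Percent of tested genes called higher (red, right of 0) and lower (blue, left of 0) in each list for Cop1-guide over Rosa26 cells with IFNγ (left panel) and in vehicle (middle panel), and for IFNγ over vehicle in Rosa26 cells (right panel), with the number tested in brackets. The 35 members and the 17 other ATF4 and CHOP targets are mostly blue in the first and second panels. In the right panel they are mostly red. The list labelled ER chaperones, which also holds Xbp1 and Edem1, is mostly red with IFNγ. All 11904 genes are split about evenly.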

How the data were processed

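Per the labels' protocols, RNA was extracted with a QIAGEN kit and libraries were built with an Illumina TruSeq kit. The authors deposited raw gene counts, and the submitters' processing notes name STAR 2.4.0, HTSeq (no version), DESeq2 1.10 and mm10, without roles. Annotation, strand setting and handling of multiply mapping reads: not given in the sources used here. A row of totals (100% of the gene counts in each library, 360 counts above their sum in Cop1 sgRNA1 vehicle replicate 1) was left out. There were 0 columns of other samples.

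Counts were tested with edgeR 4.0.16 (R 4.3.3; TMM, filterByExpr with a minimum count of 10 and total of 15, robust quasi-likelihood F test, 6 group means over 12 libraries, 6 residual degrees of freedom), called at an adjusted p under 0.05. Replicates varied by 3.21% (common biological coefficient of variation), and replicate pairs differed by more than sampling noise (chi-square per degree of freedom 2.33 to 4.21). Alternatives were RLE scaling, no filter, a replicate block, DESeq2 1.42.0, omission of each library and summed libraries. The code was checked on simulated counts. Members and lists were chosen with earlier results of these data known. Per-library values are printed for Cop1 and for members called with an absolute log2 change of at least 0.5 in Cop1 loss, in the IFNγ response of Rosa26 cells or in the interaction, and other members by counts and single values. Atf5, Asns and Slc38a2 fall outside this rule and were given in full after their values were seen. Gene positions and lengths came from GENCODE M21 (GRCm38).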

Additional observations from a re-analysis of the deposited data

Results flagged for a closer look

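In 4 members the response to IFNγ differed between Cop1-guide and Rosa26 cells by a direct test of the difference (the interaction in edgeR's quasi-likelihood model). The difference of the log2 responses was -0.38 for Atf4, -0.58 for Ppp1r15a and -0.29 for Slc3a2, all of which rose less in Cop1-guide cells, and 0.15 for Slc38a2, which fell in Rosa26 cells and was not called in Cop1-guide cells. All 12 libraries enter these values. Groups of 2 libraries cannot show which of the 2 is an outlier. The call of Slc38a2 ended without Rosa26 vehicle replicate 2, Rosa26 IFNγ replicate 1 or sgRNA2 IFNγ replicate 2 (a difference of 0.13 each time). No call of the 4 held with the libraries summed.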

How the results depend on the processing

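No called member changed direction under the alternatives run. RLE scaling and the replicate block changed no call of a member in the Cop1-loss, IFNγ and interaction comparisons, and the block ended that of Slc1a4 between guides in vehicle (edgeR adjusted p = 0.0525). Under the block 4862 genes were called for Cop1 loss with IFNγ (4828 without it) and 4292 in vehicle (4258 without it). Same-numbered libraries did not deviate together over all tested genes (15 pairs, correlations of -0.0298 to 0.0446). A pairing that touched only some genes would not show in these correlations. After summing the 2 libraries of each population, genes called for Cop1 loss numbered 1397 with IFNγ and 865 in vehicle, 1102 for IFNγ in Rosa26 cells (3900 before), 1364 in Cop1-guide cells (4073 before) and 0 for the interaction (683 before). Members called then were 18 lower and 0 higher for Cop1 loss with IFNγ, 12 lower and 0 higher in vehicle, 8 higher and 0 lower for IFNγ in Rosa26 cells, 9 higher and 0 lower in Cop1-guide cells, and 0 higher and 0 lower for the interaction. That setting has fewer samples and leaves the guide differences without replicates. It also has no guide term, so that a steady difference between guides counts as spread in the tests of IFNγ and the interaction. DESeq2 called 434 genes for the interaction, 735 between guides with IFNγ (1120 in edgeR) and 460 in vehicle (713 in edgeR). It called 1 member higher for Cop1 loss with IFNγ, 0 lower for IFNγ in Cop1-guide cells and 2 higher for the interaction, and without the filter 2 were higher for the interaction. Omitting each library in turn gave 348 to 733 genes for the interaction (348 without Rosa26 IFNγ replicate 1, 353 and 453 without Rosa26 vehicle replicates 2 and 1), 422 to 1264 between guides with IFNγ (422 and 732 without sgRNA1 IFNγ replicates 1 and 2, 429 and 680 without those of sgRNA2), and 349 to 686 in vehicle (349 and 425 without sgRNA1 vehicle replicates 1 and 2, 408 without sgRNA2 vehicle replicate 1). Members called were then 1 to 2 higher for Cop1 loss under each treatment, 0 to 1 lower for IFNγ in Cop1-guide cells, 0 to 2 higher for the interaction, and 0 to 1 lower between guides under each treatment (Got1 with IFNγ without sgRNA1 IFNγ replicate 2, Mthfd1l in vehicle without sgRNA2 vehicle replicate 2). The cause of these shifts was not tested. Depth limits Cbs, Slc7a3 and Aldh1l2.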
